A study of Mus musculus with 5 samples.

Results

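The angiopoietin and Tie receptor pathway was followed through 5 genes in brain microvascular fragments: the ligand genes *Angpt1* and *Angpt2*, the receptor genes *Tek* (encoding TIE2) and *Tie1*, and *Ptprb*, which encodes the endothelial phosphatase VE-PTP. They were picked by their gene symbols in the NCBIM37 annotation and not by a rule on their values, though earlier results of these data were known. Each had 1 row among the 37982 Ensembl identifiers measured. RNA was sequenced from 3 WT and 2 heterozygous Ins2-AKITA mice, all males on a C57BL6 background and 26 to 38 weeks old, with 1 library per mouse. The Ins2-AKITA allele is a point mutation that makes insulin 2 misfold in pancreatic beta cells, so the mice become hyperglycemic from loss of beta cells and without a toxin. The WT mice were littermates and carried no other stated allele. *Ins2* itself had an FPKM (fragments scaled to exon length and to the number mapped) of 0 in 4 of the 5 libraries and of 1.51 in WT replicate 3. Its level in brain vessels cannot check a point mutation, and the genotypes rest on the labels.

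Angiopoietins are secreted proteins that bind TIE2, a receptor tyrosine kinase carried almost exclusively by endothelial cells. ANGPT1, made by mural and other cells around the vessel, activates TIE2 and through PI3K and AKT keeps FOXO transcription factors out of the nucleus, which stabilizes the vessel. ANGPT2 is made by endothelial cells, is stored in Weibel-Palade bodies and acts as a context-dependent antagonist or weak agonist of the same receptor. TIE1 binds no angiopoietin with high affinity and modulates TIE2, and VE-PTP removes phosphate from TIE2. The balance of both ligands is a known theme in diabetic retinopathy, where loss of pericytes accompanies raised ANGPT2.

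The receptor genes lie on the same chromosome. *Tek* (ENSMUSG00000006386) occupies chromosome 4 of NCBIM37 from 94405980 to 94541667 on the plus strand and *Tie1* (ENSMUSG00000033191) chromosome 4 from 118143796 to 118162666 on the minus strand. *Angpt1* (ENSMUSG00000022309) is on the minus strand of chromosome 15 from 42256273 to 42508523, *Angpt2* (ENSMUSG00000031465) on the minus strand of chromosome 8 from 18690263 to 18741562, and *Ptprb* (ENSMUSG00000020154) on the plus strand of chromosome 10 from 115712579 to 115826594. The 250 bases upstream of both receptor genes are shown because RefSeq promoter sequences of build GRCm38.p6 matched these 2 of the 5 symbols. Capitals mark the ETS core, GGAA on either strand (TTCC when read on the printed strand), since ETS factors are regulators of endothelial genes.
Tek, chr4:94739039-94739288, plus strand: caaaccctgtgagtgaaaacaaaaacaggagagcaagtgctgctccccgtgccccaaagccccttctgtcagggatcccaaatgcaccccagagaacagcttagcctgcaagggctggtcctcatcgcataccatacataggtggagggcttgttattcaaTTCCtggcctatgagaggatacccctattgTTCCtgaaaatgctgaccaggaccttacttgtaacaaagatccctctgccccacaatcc
Tie1, chr4:118489850-118490099, minus strand: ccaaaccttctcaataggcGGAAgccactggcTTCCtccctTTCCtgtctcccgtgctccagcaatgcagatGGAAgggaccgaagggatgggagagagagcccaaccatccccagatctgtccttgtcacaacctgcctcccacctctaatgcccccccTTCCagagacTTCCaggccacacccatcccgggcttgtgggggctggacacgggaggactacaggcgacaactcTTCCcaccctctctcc
The *Tek* window held 2 matches and the *Tie1* window 7. Of 32851 RefSeq promoter windows of 250 bases, 93.4% held at least 1 match, 76.8% at least 2 and 3.82% at least 7, with a median of 3. The FOX motif TGTTTAC, searched on both strands, was in neither window and in 3.17% of all windows. Such matches are letters in a window and not measured binding.

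All 5 genes passed the filter of a mean FPKM of at least 1. FPKM divides by length, so their levels can be set side by side. *Ptprb* was the highest and *Tek* the second in each of the 5 mice, and *Tie1* followed. At their mean WT level, *Ptprb* stood at percentile 89.2 of the 16286 genes tested, *Tek* at 78.1, *Tie1* at 60.9, *Angpt2* at 27.0 and *Angpt1* at 20.9. The ligand genes did not keep their order: *Angpt2* was above *Angpt1* in all 3 WT mice, by little in WT replicate 3, and below it in both Ins2-AKITA mice. The order in the WT mice lay within the counting error given below. In WT mice their means of 4.33 ± 0.853 and 3.27 ± 0.700 FPKM (SD, n = 3) lay closer together than the summed spreads.

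The number of fragments behind the values was read from the steps between low FPKM values of genes with 1 transcript. It came to 1138910 to 1329148 in 4 of the mice and to 2875738 in WT replicate 3. The shallow depth weighs on the ligand genes most. In WT replicates 1, 2 and 3 an estimated 11.9, 21.1 and 38.3 fragments fell on *Angpt1*, and 25.2 and 28.3 in Ins2-AKITA replicates 1 and 2. For *Angpt2* the estimates were 17.9, 22.1 and 32.3 fragments in the WT and 7.88 and 5.05 in the Ins2-AKITA mice. *Ptprb*, by contrast, had between 504 and 1577. The 95% intervals given for single mice are exact Poisson intervals on these estimates and cover counting error only. For genes with several transcripts they assume the longest.

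*Angpt1*, the activating ligand, had an FPKM of 2.55, 3.95 and 3.31 in WT replicates 1 to 3 and of 5.501 and 5.40 in Ins2-AKITA replicates 1 and 2. Both Ins2-AKITA mice lay above all WT mice. WT averaged 3.27 ± 0.700 (SD, n = 3) and Ins2-AKITA 5.45 ± 0.0704 (SD, n = 2), a ratio of 1.67. On the log2(FPKM + 1) scale, which understates changes of low genes, the difference was 0.61 (standard error 0.33, 95% interval -0.18 to 1.40, adjusted p = 0.90 from limma with Benjamini-Hochberg adjustment over all genes). The exact two-sided permutation p was 0.1, the smallest that 3 mice against 2 can give. With counting error the mice were not separated: the interval was 2.45 to 6.03 FPKM in WT replicate 2 and 3.57 to 8.11 in Ins2-AKITA replicate 1. *Gm17473*, a lincRNA gene on the opposite strand, shares 283 exon bases with *Angpt1*. It had at most 0.890 FPKM in any mouse, and whether reads were assigned by strand is not given in the sources used here.

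*Angpt2*, the ligand released by endothelial cells, had 4.62, 4.998 and 3.37 FPKM in the WT mice, compared with 2.08 and 1.17 in Ins2-AKITA replicates 1 and 2. Again the genotypes did not overlap, here with both Ins2-AKITA mice below every WT mouse. WT averaged 4.33 ± 0.853 (SD, n = 3) against 1.62 ± 0.645 (SD, n = 2) for Ins2-AKITA, which was 2.67-fold lower. The log2 difference was -1.03 (standard error 0.38, 95% interval -1.96 to -0.11, limma p = 0.034 before and 0.90 after adjustment, exact permutation p = 0.1). The unadjusted p ranged from 0.032 to 0.12 in limma with 1 mouse left out, and was above 0.05 without WT replicate 1, WT replicate 2 or Ins2-AKITA replicate 2. Without the added 1 the log2 difference was -1.46 (standard error 0.51). The counting intervals of WT replicates 1, 2 and 3 were 2.73 to 7.32, 3.14 to 7.56 and 2.31 to 4.75 FPKM. That of Ins2-AKITA replicate 1 (0.890 to 4.11 FPKM) overlapped all of them. The interval of Ins2-AKITA replicate 2 (0.381 to 2.71 FPKM) overlapped that of WT replicate 3 and lay below those of WT replicates 1 and 2. *Angpt2* lies within *Mcph1*, a gene of the opposite strand with which it shares no exon base and which had 11.3, 12.4 and 6.66 FPKM in WT, against 7.62 and 10.5 in Ins2-AKITA replicates 1 and 2.

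**Figure D1:**
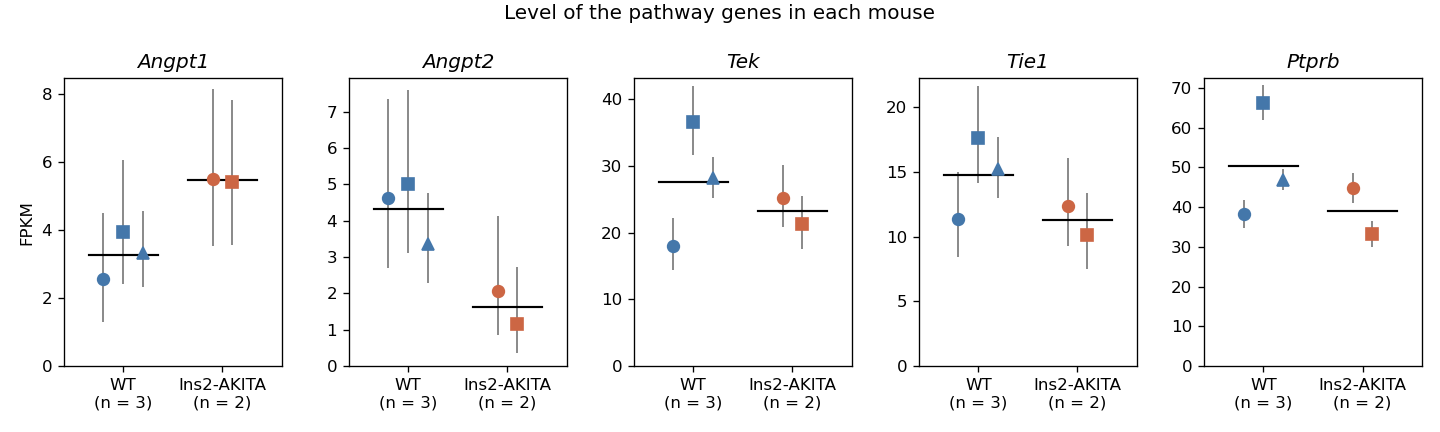
FPKM of each pathway gene (vertical axes from 0, a separate scale for each gene) in 3 WT (blue) and 2 Ins2-AKITA mice (orange), where circle, square and triangle are replicates 1, 2 and 3, grey bars are 95% Poisson intervals of counting and black lines are group means. Both Ins2-AKITA mice lie above all WT mice for *Angpt1* (5.501 and 5.40) and below all of them for *Angpt2* (2.08 and 1.17), and the genotypes overlap for *Tek*, *Tie1* and *Ptprb*.

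Thus for 1 of the 5 genes both Ins2-AKITA mice exceeded the WT range, and for 1 both fell short of it. Of all 16286 genes tested, 9.24% were placed as *Angpt1* was and 10.3% as *Angpt2* was, so that either placement alone was common in these libraries. None of the 5 genes passed an adjusted p of 0.05 in limma, which called 0% of all genes higher and 0.0246% lower. At an unadjusted p under 0.05 limma had 1 of the 5, *Angpt2*, against 1.53% of all genes higher and 2.93% lower.

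The ratio of both ligands within a mouse does not depend on how the mouse is scaled. *Angpt2* over *Angpt1* was 1.81, 1.27 and 1.02 across WT replicates 1 to 3, but only 0.378 and 0.216 in the Ins2-AKITA animals. By FPKM every WT mouse thus had at least as much *Angpt2* as *Angpt1*, and both Ins2-AKITA mice had less. In every WT mouse the order lay within counting error, as the 95% Poisson intervals of both genes overlapped. In WT replicate 1 they were 1.31 to 4.46 FPKM for *Angpt1* and 2.73 to 7.32 FPKM for *Angpt2*. The intervals also overlapped in Ins2-AKITA replicate 1 (3.57 to 8.11 and 0.890 to 4.11 FPKM) but not in Ins2-AKITA replicate 2. The log2 ratio was 0.41 ± 0.42 (SD, n = 3) in WT and -1.81 ± 0.57 (SD, n = 2) in Ins2-AKITA mice, a 4.65-fold lower ratio and a difference larger than the spread within either genotype (exact permutation p = 0.1, the smallest possible). In these same mice *Angpt1* was higher and *Angpt2* lower without overlap. Their ratio therefore had to separate the genotypes and is not further support. The log2 difference of the ratio stayed between -2.62 and -1.81 with each mouse left out in turn. Counted as fragments, which are not divided by length as FPKM is, *Angpt2* held 18 of 30, 22 of 43 and 32 of 70 ligand fragments in the WT mice. That is 60.0%, 51.2% and 45.7%. In the Ins2-AKITA mice it held 8 of 33 (24.2%, exact binomial 95% interval 11.1% to 42.3%) and 5 of 33 (15.2%, interval 5.11% to 31.9%). The lowest WT interval, that of WT replicate 3, ran from 33.7% to 58.1%, so that it overlapped the interval of Ins2-AKITA replicate 1 and lay above that of replicate 2. The intervals of WT replicates 1 (from 40.6%) and 2 (from 35.5%) also overlapped that of Ins2-AKITA replicate 1.

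The level of *Angpt2* was also set against that of its receptor gene. *Angpt2* over *Tek* was 0.257, 0.137 and 0.120 in the WT mice, compared with 0.0826 and 0.0549 in Ins2-AKITA replicates 1 and 2. The genotypes did not overlap, with a log2 ratio of -2.63 ± 0.59 (SD, n = 3) in WT and -3.89 ± 0.42 (SD, n = 2) in Ins2-AKITA mice (exact permutation p = 0.1). This ratio reuses the *Angpt2* values that already lay apart, with their few fragments, and is not separate support. Its log2 difference lay between -1.56 and -0.93 with each mouse left out in turn, and was -0.93 without WT replicate 1.

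**Figure D2:**
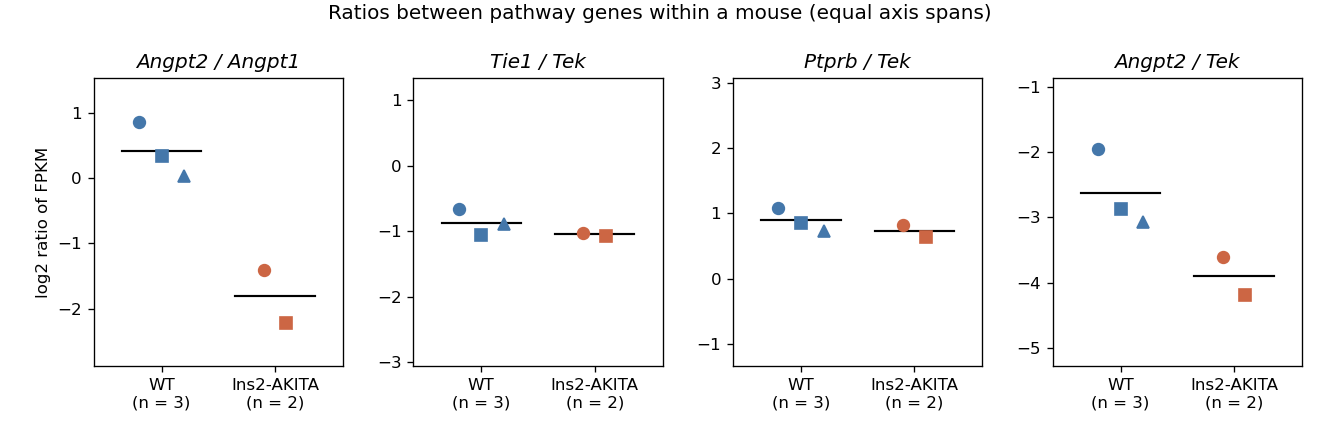
Log2 ratio of FPKM between pathway genes within each mouse, for 3 WT (blue) and 2 Ins2-AKITA mice (orange), with black lines at group means, symbols for replicates 1 to 3 as circle, square and triangle, and the same axis span in all panels. *Angpt2* over *Angpt1* separates the genotypes by a mean of -2.22 (Ins2-AKITA minus WT, log2), while *Tie1* over *Tek* and *Ptprb* over *Tek* differ by -0.18 and -0.16 and overlap.

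*Tek*, the angiopoietin receptor gene, had 18.0, 36.6 and 28.2 FPKM in WT, against 25.2 and 21.3 FPKM in Ins2-AKITA replicates 1 and 2. Both Ins2-AKITA mice fell inside the WT range. WT replicates 1 and 2 differed by more than counting error, with intervals of 14.5 to 22.0 and 31.8 to 41.8 FPKM. The log2 difference was -0.19 (standard error 0.32, 95% interval -0.96 to 0.58, adjusted p = 0.94 from limma, exact permutation p = 0.7), and without WT replicate 2 it was 0.037.

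*Tie1*, the gene of the second receptor, had 11.4, 17.6 and 15.2 FPKM in the WT mice, compared with 12.3 and 10.2 in Ins2-AKITA replicates 1 and 2. Ins2-AKITA replicate 2 was the lowest of the 5, and replicate 1 was above WT replicate 1. The log2 difference was -0.35 (standard error 0.27, 95% interval -0.99 to 0.30, adjusted p = 0.90 from limma, exact permutation p = 0.3). *Tie1* over *Tek* was 0.633, 0.481 and 0.540 in WT, against 0.490 and 0.478 in Ins2-AKITA replicates 1 and 2, inside the WT range in replicate 1 and just under it in replicate 2 (exact permutation p = 0.3).

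*Ptprb*, the phosphatase gene, had 38.2, 66.3 and 46.9 FPKM in WT, against 44.7 and 33.2 in Ins2-AKITA replicates 1 and 2. WT replicate 2 had the highest value, as it did for *Tek* and *Tie1*, and Ins2-AKITA replicate 2 had the lowest. The log2 difference was -0.34 (standard error 0.28, 95% interval -1.03 to 0.34, adjusted p = 0.90 from limma, exact permutation p = 0.4). *Ptprb* over *Tek* ran from 1.67 to 2.13 in WT mice and was 1.78 and 1.56 in Ins2-AKITA mice (exact permutation p = 0.4). The snoRNA gene *SNORA4* lies within *Ptprb* and shares no exon base with it.

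The fragments were captured on beads against PECAM1 and hold endothelial cells with attached pericytes and astrocyte end-feet. All 10 endothelial markers were above 0 in every mouse, so the labelled compartment was present. Summed marker levels nevertheless differed between genotypes for several cell types. In such bulk samples, fewer cells of a type and less RNA per cell cannot be told apart. The summed endothelial markers had 506 to 889 FPKM in WT and 432 to 532 in Ins2-AKITA mice, with 9 of 10 markers lower. The 6 astrocyte markers were all higher, from a summed 2081 to 2885 FPKM in WT to 3263 and 3861 in Ins2-AKITA mice. The 4 smooth muscle markers were all lower, from 212 to 249 FPKM in WT to 166 and 129 in Ins2-AKITA mice. Of 8 pericyte markers 5 were lower and 3 higher (208 to 258 FPKM in WT, 234 and 186 in Ins2-AKITA mice). The 5 erythroid genes were all lower (35.1 to 67.7 against 32.4 and 25.1 FPKM), with *Hbb-b2* at 0 in Ins2-AKITA replicate 2. Of the other cell types, the summed levels were 1469 to 1556 against 1576 and 1921 FPKM for neurons, 1875 to 2554 against 2028 and 2224 for oligodendrocytes, 86.5 to 152 against 138 and 126 for microglia, and 28.7 to 33.0 against 36.2 and 31.3 for fibroblasts, where *Lum* was at 0 in Ins2-AKITA replicate 2. No marker passed an adjusted p of 0.05 in limma, and 2 endothelial, 3 smooth muscle and 1 erythroid marker had an unadjusted p under 0.05, all lower, beside 2.93% of all genes lower at that threshold. Of all 16286 genes, 8718 had a negative difference.

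Set against the mean log2 FPKM of the 10 endothelial markers in the same mouse, the ligand genes stayed apart between genotypes and the receptor genes did not. *Angpt2* remained below all WT mice, at -3.54, -3.92 and -3.71 in WT, against -4.45 and -4.95 in Ins2-AKITA replicates 1 and 2, a difference of -0.98 (exact permutation p = 0.1). *Tek*, *Tie1* and *Ptprb* differed from WT by 0.28, 0.10 and 0.13 with overlapping mice (exact permutation p = 0.6, 0.8 and 0.7), the last 2 changing sign to -0.034 and -0.020 without WT replicate 1. That of *Tek* was 0.042 without WT replicate 1 and 0.51 without WT replicate 3. On this relative scale the 3 receptor-side genes thus had Ins2-AKITA means at or slightly above WT, where their FPKM means were below. *Angpt1* was 1.24 higher relative to the endothelial markers (exact permutation p = 0.1).

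The same was computed against markers of other cell types, a choice made after the values had been seen. Relative to pericyte markers, the log2 difference of Ins2-AKITA from WT was 1.01 for *Angpt1* and -1.21 for *Angpt2*, both without overlap. Relative to smooth muscle markers *Angpt1* was 1.72 higher without overlap. These markers were on average lower in both Ins2-AKITA mice than in any WT mouse, and *Angpt1* was higher. This separation therefore had to follow and is not further support. Relative to the same markers *Angpt2* had a difference of -0.50 from WT, with overlapping mice (exact permutation p = 0.3). Relative to astrocyte markers *Angpt1* no longer separated the genotypes, at -6.19, -5.72 and -6.42 in WT, against -5.69 and -6.01 in Ins2-AKITA replicates 1 and 2, a difference of 0.26 (exact permutation p = 0.4). *Angpt2* differed from WT by -1.96 on that scale, without overlap (exact permutation p = 0.1). The astrocyte markers were on average higher in both Ins2-AKITA mice than in any WT mouse, and *Angpt2* was lower. That separation too had to follow and is not further support. Whether the *Angpt1* difference shares a source with the higher astrocyte markers, or the *Angpt2* difference with the lower smooth muscle markers, was not tested.

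**Figure D3:**
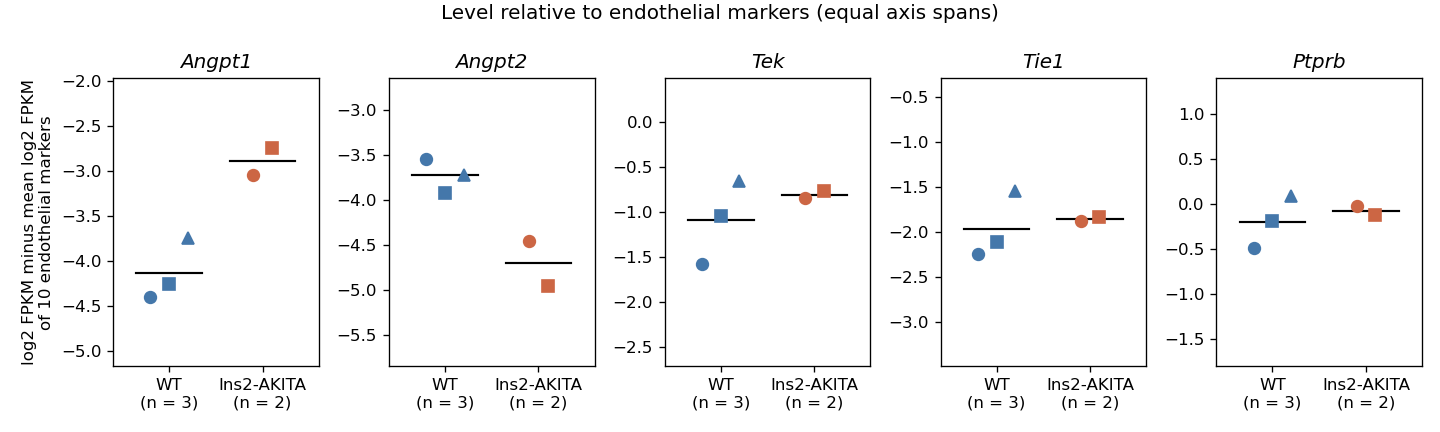
Log2 FPKM of each pathway gene minus the mean log2 FPKM of 10 endothelial markers in the same mouse (vertical axes, equal spans), for 3 WT (blue) and 2 Ins2-AKITA mice (orange) with black lines at group means. *Angpt2* lies lower in both Ins2-AKITA mice (-4.45 and -4.95) than in any WT mouse and *Angpt1* higher, and the receptor genes *Tek* and *Tie1* and the phosphatase gene *Ptprb* overlap between genotypes.

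The values so far are FPKM as deposited. Scaling each mouse to the same FPKM sum moved the median log2 difference of all genes from -0.035 to 1.48. Genes of small and ribosomal RNAs held between 40.6% and 96.7% of that sum. On that scale all 5 pathway genes had positive differences before the median was taken off, those of *Angpt2*, *Tek*, *Tie1* and *Ptprb* changing sign. Relative to that median, *Angpt2* was at -1.29 and *Angpt1* at 0.50, against -0.997 and 0.64 with the deposited values. *Tek*, *Tie1* and *Ptprb* were at -0.010, -0.23 and -0.13. Scaling to the sum of protein-coding genes alone put the median at -0.074, and relative to it *Angpt1* was at 0.65 and *Angpt2* at -0.99.

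**Figure D4:**
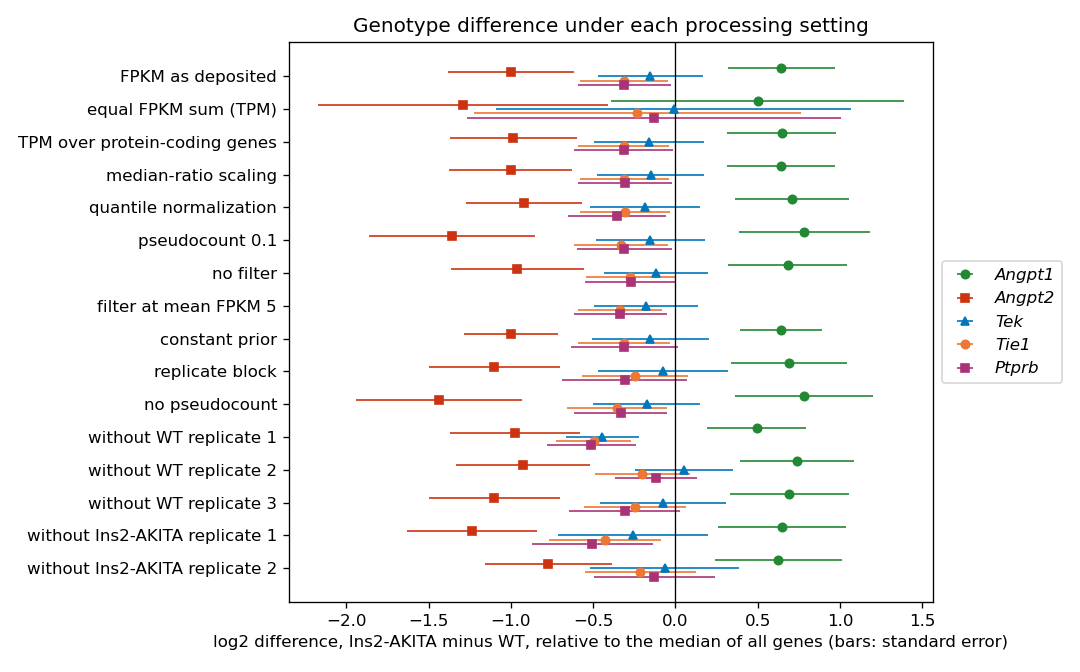
Log2 difference between Ins2-AKITA and WT mice for each pathway gene, relative to the median of all genes (horizontal axis, bars are standard errors from limma), under each processing setting (rows). *Angpt1* lies to the right and *Angpt2* to the left of 0 in every row that holds them, while *Tek* crosses 0 without WT replicate 2; the filter at a mean FPKM of 5 drops both ligand genes.

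The genes around the receptor were taken in groups by role, chosen with earlier results of these data known. With the deposited FPKM, none of their 48 members that passed the filter reached an adjusted p of 0.05 in limma in either direction, and 4 had an unadjusted p under 0.05, all lower in Ins2-AKITA mice, where 2.93% of all genes were lower and 1.53% higher at that threshold. The median log2 difference of all genes was -0.035.

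Among other ligands, *Angpt4*, *Svep1* and *Angptl7* were below the filter. The 5 ligand-like genes tested had a median difference of -0.40, with 3 lower and 2 higher. *Angptl6*, a secreted angiopoietin-like protein, had 3.79, 3.35 and 4.66 FPKM in WT, against 1.96 and 1.15 in Ins2-AKITA replicates 1 and 2, without overlap (log2 difference -0.96, standard error 0.38, limma p = 0.043 before and 0.90 after adjustment, exact permutation p = 0.1). *Angptl4*, an inhibitor of lipoprotein lipase, reached 16.5 FPKM in WT replicate 1 and no more than 3.17 in any other mouse. *Angptl1* had the highest difference of the group, 0.43 (standard error 0.56).

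Adaptors and PI3K subunits pass the TIE2 signal on. All 12 were tested, 8 lower and 4 higher with a median of -0.17. Without overlap, 2 were higher, *Grb2* among them, and 1 was lower, beside 9.24% and 10.3% of all genes. *Grb2*, a general adaptor, had 53.7, 75.3 and 57.8 FPKM in WT, against 81.8 and 85.0 in Ins2-AKITA replicates 1 and 2 (0.43, standard error 0.21, adjusted p = 0.90 from limma). *Dok2*, an adaptor that binds activated TIE2, rested on WT replicate 1, with 15.4 FPKM there and at most 0.565 in the other mice.

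Of the 7 genes for AKT kinases, FOXO factors and endothelial nitric oxide synthase, 4 were lower and 3 higher, and all overlapped between genotypes (median -0.11). *Foxo1*, the main FOXO factor of endothelium, had 14.0, 11.5 and 13.3 FPKM in WT, against 10.2 and 12.99 in Ins2-AKITA replicates 1 and 2. *Nos3*, the synthase gene, had a log2 difference of -0.42 (standard error 0.35).

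All 11 FOXO target genes were tested, and 8 were lower and 3 higher with a median of -0.23. *Klf2*, also a flow-responsive factor of endothelium, stood apart, with 26.4, 26.6 and 30.1 FPKM in WT, against 8.20 and 12.004 in Ins2-AKITA replicates 1 and 2. Its log2 difference was -1.39 (standard error 0.24, limma p = 0.00089 before and 0.58 after adjustment, exact permutation p = 0.1). *Irs2*, an insulin receptor substrate, and *Sesn1*, a stress-induced inhibitor of growth signaling, did not overlap between genotypes either, at -0.31 and -0.38, both lower. Their limma p was 0.22 and 0.21 before adjustment, and their exact permutation p 0.2 and 0.3. So 3 of the 11 were lower without overlap, beside 10.3% of all genes. *Sesn3* was the highest of the group at 0.34 (standard error 0.27).

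The 4 integrin and junction genes were all lower, with a median of -0.31. *Cdh5*, the VE-cadherin gene, whose protein associates with VE-PTP, had 32.3, 44.5 and 30.9 FPKM in WT, against 25.0005 and 21.9 in Ins2-AKITA replicates 1 and 2 (-0.58, standard error 0.23, limma p = 0.045 before and 0.90 after adjustment, exact permutation p = 0.1). *Cdh5* is also among the endothelial markers above.

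Of the Weibel-Palade body genes, which bear on the storage of ANGPT2, *Selp* was below the filter and the other 3 differed in direction. *Rab27a*, a small GTPase of these granules, had 3.43, 4.41 and 3.58 FPKM in WT, against 0.969 and 1.42 in Ins2-AKITA replicates 1 and 2 (-1.13, standard error 0.38, limma p = 0.022 before and 0.90 after adjustment, exact permutation p = 0.1). *Vwf*, the main cargo, had 73.0, 70.9 and 36.5 FPKM in WT, against 39.3 and 29.5 in Ins2-AKITA replicates 1 and 2, so that Ins2-AKITA replicate 1 was above WT replicate 3. *Cd63*, a membrane protein of many endosomal compartments, was higher in both Ins2-AKITA mice, with 88.5 and 73.3 FPKM against 31.9 to 69.5 in WT (0.70, standard error 0.34, adjusted p = 0.90 from limma).

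Endothelial sprouting genes, among which *Angpt2* is often counted, had 6 of 8 members tested. *Esm1* and *Cxcr4* were below the filter. Of the 6, 4 were lower and 2 higher (median -0.29). *Dll4*, a Notch ligand, was the one without overlap, beside 10.3% of all genes lower without overlap. It had 7.30, 8.24 and 8.17 FPKM in WT, against 5.54 and 4.64 in Ins2-AKITA replicates 1 and 2 (-0.55, standard error 0.26, limma p = 0.078 before and 0.90 after adjustment, exact permutation p = 0.1). *Apln*, a peptide ligand of sprouting cells, was at 0.48 (standard error 0.68), and *Kdr*, the VEGF receptor gene, at 0.040 (standard error 0.45).

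**Figure D5:**
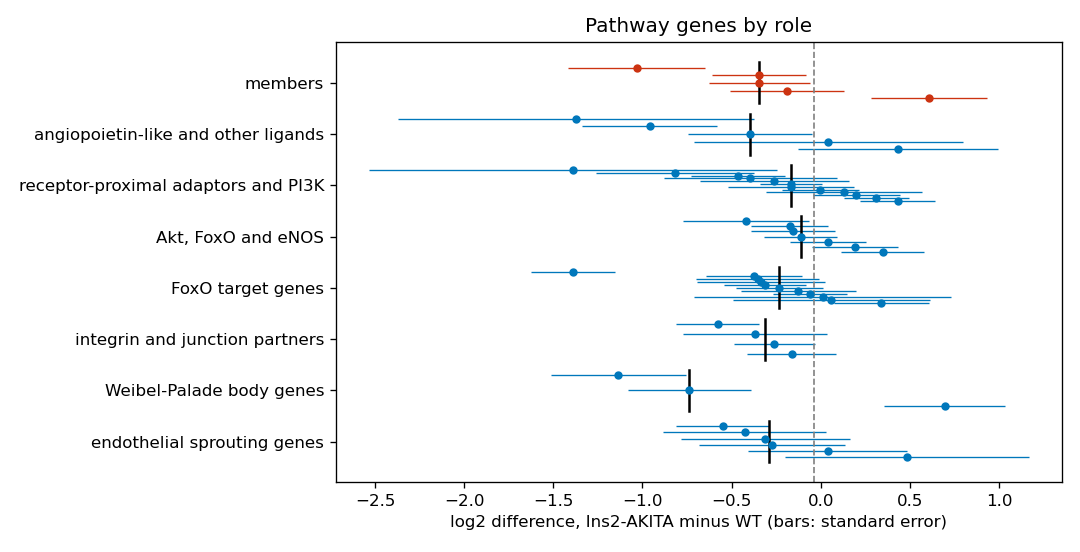
Log2 difference between Ins2-AKITA and WT mice (horizontal axis, bars are standard errors from limma) of the 5 pathway genes (red) and of the tested genes around the receptor by role (blue), with a short black line at each group's median and a dashed line at the median of all genes, -0.035. *Angpt2* and *Angpt1* are at the ends of the red group at -1.03 and 0.61, and *Klf2* at -1.39 lies apart from the other FOXO targets.

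The profile of each pathway gene over the 5 mice was compared with those of 10471 or 10472 protein-coding genes with a mean FPKM of at least 5, by the root-mean-square distance of log2(FPKM + 1) values centred on each gene's mean. With 5 mice many genes lie close by chance, and the neighbours are a description. *Tie1* and *Ptprb* were 0.11 apart, *Tek* and *Ptprb* 0.14 and *Tek* and *Tie1* 0.15, against own deviations of 0.27 to 0.34. *Angpt1* and *Angpt2* were 0.84 apart, the widest distance among the 5. The 3 genes nearest to *Tie1* were *Helz* (0.035), *Foxf2* (0.048) and *Zic2* (0.051), and those nearest to *Ptprb* were *Cdc42ep1* (0.036), *Slc31a1* (0.054) and *Napa* (0.060). Nearest to *Tek* were *Mdga1* (0.067), *Tars2* (0.079) and *Bfar* (0.079). *Angpt2* had *Tssc4* (0.052), *Commd2* (0.083) and *Tpst2* (0.092) nearest, and *Angpt1* had *Cpped1* (0.055), *Kif1b* (0.059) and *Phpt1* (0.061).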

How the data were processed

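Libraries were made by the authors with a stranded low-input kit after removal of rRNA and tRNA. Per the submitters' processing notes, TopHat2 (2.0.4) mapped the reads to NCBIM37, Picard (1.92) filtered duplicates, and Cufflinks (2.2.1) served for testing. The deposited FPKM values give 1 number per Ensembl identifier and mouse. The program that made them, the Ensembl release and strand use in counting are not given in the sources used here. Removing duplicates can lower highly expressed genes.

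Identifiers were matched to GENCODE vM1 of NCBIM37 (37197 of 37982) and summed by symbol. A mean FPKM of 1 or more left 16286 symbols. Their log2(FPKM + 1) values went into limma (3.58.1, R 4.3.3), moderated with an intensity trend and fitted on genotype alone, two-sided, with Benjamini-Hochberg adjustment at 0.05. The fit was tested on simulated data. Exact permutation tests ran over all 10 splits of the 5 mice. Other steps used Python 3.11.15. Fragments were estimated as the number that makes FPKM times length, less 224 to 230 bases, whole (within 0.05) for genes of 1 transcript, which held for 97.9% to 98.3% of low values. No libraries were identical.

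The 5 pathway genes and all gene lists were chosen with earlier results of these data known. Named genes were the 5, list members with an unadjusted p under 0.05, each list's extremes and up to 2 of its most abundant, and the 3 nearest profiles per gene; *Foxo1*, *Irs2* and *Sesn1* were added after their values were seen. One gene that this rule names is not reported here. Mice are separate animals with 1 library each. The alternatives were other scalings, pseudocounts, filters and priors, a replicate block and each mouse left out.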

Additional observations from a re-analysis of the deposited data

How the results depend on the processing

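With FPKM scaled to equal sums (TPM), the differences of *Angpt2*, *Tek*, *Tie1* and *Ptprb* turned positive, to 0.19, 1.47, 1.25 and 1.35, beside an all-gene median of 1.48, and 47 genes were called higher and 38 lower in place of 0 and 4. This scaling multiplies a mouse by 1 factor, so the ratios within a mouse do not change. The number called lower was 2 with no filter, 2 with a filter at a mean FPKM of 5 and 2 with a constant prior, which also called 1 gene higher. Without a pseudocount, a fit chosen after seeing the data on the 14384 genes above 0 in all mice, limma called 0 lower and 0 higher, with 465 and 234 at an unadjusted p under 0.05. With each mouse left out, genes called higher ranged from 0 to 10 and lower from 1 to 6, the difference of *Tek* from -0.46 to 0.037, and the differences relative to endothelial markers from 0.042 to 0.51 for *Tek*, from -0.034 to 0.32 for *Tie1* and from -0.020 to 0.27 for *Ptprb*. Without an Ins2-AKITA mouse, limma assumes that the lone one varies like the WT mice. *Angpt1* kept a positive difference under every alternative that tested it, between 0.48 and 1.98. *Angpt2* stayed between -1.46 and -0.78 in all but the equal-sum scaling. The filter at 5 removed both. The cause of the reversals for *Tek*, *Tie1* and *Ptprb* with a mouse left out was not tested. None of the 5 pathway genes passed an adjusted p of 0.05 in limma under any alternative, and no list member did under those run for the lists (all but the constant prior and the fit without a pseudocount).

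Replicate numbers are shared between genotypes but no source pairs the mice. With the replicate number as a block, WT replicate 3 has no partner and adds nothing to the difference, and limma called 0 genes higher and 5 lower. *Angpt1* was at 0.62, *Angpt2* at -1.17, *Tek* at -0.15, *Tie1* at -0.31 and *Ptprb* at -0.38, and the log2 ratio of *Angpt2* over *Angpt1* differed by -2.41, with no call changed for them. With 2 pairs the block cannot show whether the numbers mean a pairing. Depth limits *Angpt1* and *Angpt2* most: 3 fragments of *Angpt2* correspond to 0.313 to 0.791 FPKM depending on the mouse.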
